A study of Mus musculus with 12 samples.

Results

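The core circadian clock genes were followed in the liver of mice on a control or an iron-loaded diet, as a check on how alike the animals were in the daily state of their livers when tissue was collected. The 10 genes were Arntl, Clock and Npas2 (activators), Per1, Per2, Per3, Cry1 and Cry2 (repressors), Nr1d1 (a nuclear receptor repressor) and Dbp (an output factor). They were chosen by symbol, and all 10 were found among the 27022 genes listed by Ensembl identifier. The liver RNA of 6 female SJL/J mice aged 11 weeks was used. The control group of 3 mice was fed AIN-93G with 50 ppm iron, and the iron-loaded group of 3 mice was fed 2% carbonyl iron from 6 weeks of age. All animals were of the same strain and sex, without any transgene, were fasted from 6:30 am, and gave their tissue in a window that opened at 11:30 am and closed at 1 pm. Each diet was given to a single cage, so that diet, cage and any difference in collection time between the cages cannot be told apart. The order of collection and the light cycle are not given in the sources used here. Each RNA gave 1 Trad-KAPA library, in which reads come from the whole transcript, and 1 3’-LEXO library, in which they come mostly from its 3’ end, so that there were 12 libraries of 6 mice.

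The clock is a feedback loop of transcription that runs in nearly every cell. ARNTL (BMAL1) pairs with CLOCK or NPAS2, binds E-boxes in DNA and switches on the Per, Cry, Nr1d and Dbp genes, and the PER and CRY proteins then shut the activators off. NR1D1 (REV-ERBα) represses Arntl and Npas2 through response elements that the ROR activators also bind, and DBP drives genes with a D-box, to which NFIL3 binds as a repressor. In the mouse liver the activator genes are high when night turns to day, Nr1d1 and Dbp rise and fall during the day, and the Per genes are high towards dusk, so that Arntl and Dbp run in nearly opposite phase. Feeding, body temperature and glucocorticoids also set the liver clock.

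Promoters of the members that differed between diets in the Trad-KAPA libraries and hold the letters of an E-box or a D-box are shown first, since factors of the loop bind such elements. Whether these matches are used in the liver was not tested. RefSeq promoter windows of GRCm38.p6, from 250 bases before to 50 bases after a start, were found for 9 of the 10 members, with no entry for Per2. The letters searched on both strands were CACGTG for the E-box, TTATGTAA and TTACGTAA for the D-box, and AGGTCA for the core of the NR1D and ROR response element. In the sequences below, written 5’ to 3’ along the gene, capitals mark these matches.
Per1, first start, chr11:69098699-69098998, plus strand: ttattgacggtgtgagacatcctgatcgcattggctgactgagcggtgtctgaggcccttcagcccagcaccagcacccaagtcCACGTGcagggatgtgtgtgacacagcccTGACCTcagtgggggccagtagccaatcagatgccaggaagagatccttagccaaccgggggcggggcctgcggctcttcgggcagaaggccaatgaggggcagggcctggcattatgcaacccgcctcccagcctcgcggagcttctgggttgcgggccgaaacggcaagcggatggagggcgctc
Per3, chr4:151044616-151044915, minus strand: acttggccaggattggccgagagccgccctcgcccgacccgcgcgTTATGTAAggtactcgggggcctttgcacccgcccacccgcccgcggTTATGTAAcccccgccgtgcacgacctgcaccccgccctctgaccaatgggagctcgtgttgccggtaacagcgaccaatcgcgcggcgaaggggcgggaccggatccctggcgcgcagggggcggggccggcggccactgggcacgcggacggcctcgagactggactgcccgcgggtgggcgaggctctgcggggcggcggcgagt
Cry1, chr10:85185005-85185304, minus strand: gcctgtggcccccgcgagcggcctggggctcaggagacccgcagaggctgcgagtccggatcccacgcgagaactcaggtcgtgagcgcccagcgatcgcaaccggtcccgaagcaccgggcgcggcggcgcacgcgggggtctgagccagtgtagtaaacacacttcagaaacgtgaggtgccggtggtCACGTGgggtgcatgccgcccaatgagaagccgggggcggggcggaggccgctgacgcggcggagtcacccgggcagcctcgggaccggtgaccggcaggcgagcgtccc
These 9 members had 13 windows, since Clock has 3 starts and Arntl and Per1 have 2 each. The E-box letters stood in 2 of the 13 windows (15.4%), those of Cry1 and the first start of Per1, against 7.15% of all 32851 windows of this length. The D-box letters stood in 1 window (7.69%), that of Per3, with 2 copies, against 1.06% of all windows. AGGTCA stood in 1 window each of Arntl, Clock and Per1 (23.1% of the 13), against 16.3% of all windows. With so few windows these shares are a description. The matches do not overlap one another. The windows of Npas2, Cry2, Nr1d1 and Dbp held none of these letters, which says only that they are not within this stretch.

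The libraries held between 10724672 and 16553616 counts. Iron-loaded mice 2 and 3 were much alike, since the chi-square statistic between their counts, divided by its degrees of freedom, was 7.83 with Trad-KAPA and 7.63 with 3’-LEXO, while all other pairs of libraries of the same kit and diet had 25.3 to 82.6. Iron-loaded mouse 1 thus stood apart from the others of its diet, and the diet difference is also given without it wherever this changed the call of a named clock gene. Bmp6, which liver cells make in response to iron, had 2.82 to 3.75 counts in 1000000 counts of a library (CPM) in the control and 17.2 to 22.1 CPM in the iron-loaded Trad-KAPA libraries. In 3’-LEXO, Bmp6 had at most 0.0715 CPM in the control and 0.307 CPM in the iron-loaded libraries, too few for the diet test. Hamp, which encodes the iron hormone hepcidin, ranged from 44.0 to 515 CPM in the control and from 1026 to 1326 CPM in the iron-loaded Trad-KAPA libraries. The 5 hepatocyte markers summed to at least 45118 CPM in every library. In Trad-KAPA the summed Kupffer cell markers were 281 to 449 CPM on the control and 461 to 470 CPM on the iron-loaded diet, and the summed lymphocyte markers were 12.5 to 17.4 and 22.1 to 24.6 CPM. Of the lymphocyte markers, Ptprc, which all leukocytes express, rose from a mean of 12.9 to 21.9 CPM, while the T cell marker Cd3e (0.842 and 0.915 CPM) and the B cell marker Cd79a (1.03 and 0.921 CPM) did not pass the test. Of the 4 Kupffer cell markers, 1 rose, Vsig4, from a mean of 30.6 to 51.4 CPM. In 3’-LEXO both summed ranges overlapped between diets. The part of these cells in the results below was not tested. In bulk liver, fewer cells of a type and less RNA per cell cannot be told apart.

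Levels of the members were compared with each other only in Trad-KAPA, as CPM per kilobase of exon (RPKM), because reads there scale with length. In the control mice Nr1d1 was the most abundant, at 66.7 ± 12.5 RPKM (SD, n = 3 mice), followed by Dbp at 37.9 ± 18.7 and Cry2 at 10.8 ± 2.12. Per1 (4.83 ± 4.13), Per3 (4.49 ± 2.62), Clock (3.59 ± 0.662) and Per2 (2.59 ± 0.625) came next. Cry1 (1.96 ± 0.498), Arntl (1.57 ± 0.724) and Npas2 (1.02 ± 0.729) were the lowest. The ranges of Nr1d1 and Dbp did not overlap among the control mice, although the spread of Dbp was wide, and the ranges of Dbp and Cry2 did not overlap either. From Cry2 down to Npas2 the range of each gene overlapped with those of its neighbours. Within every control mouse, however, Cry2 was above all members listed after it and Arntl was above Npas2. Clock was also above Per2 in every control mouse, though barely in control mouse 1. The range of Clock lay above those of Cry1, Arntl and Npas2. The other neighbours changed places between mice, so that their order is not settled by 3 mice.

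**Figure D1:**
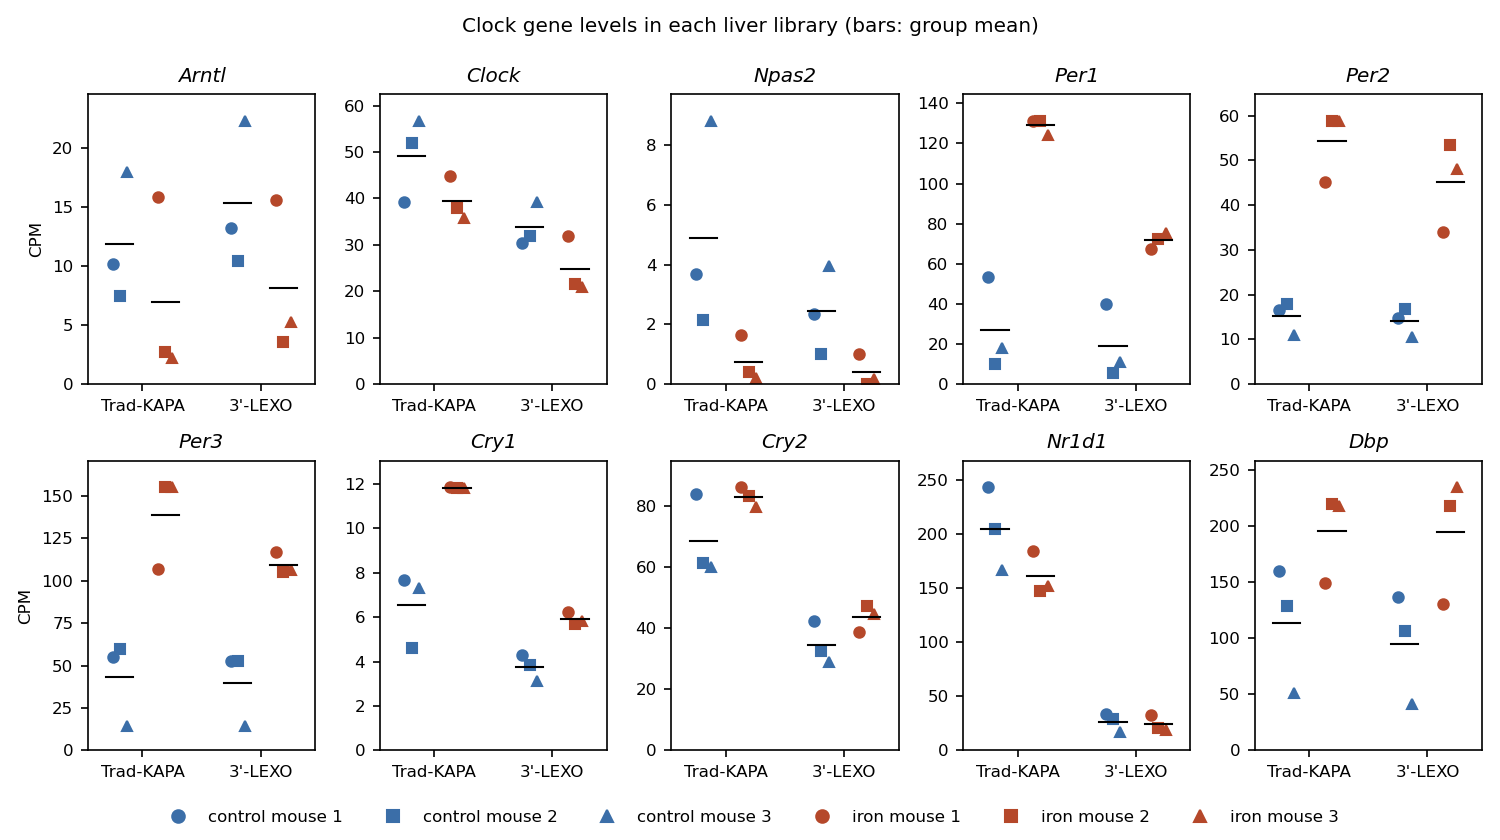
Level of each clock gene in CPM (vertical axis from 0, own scale for each gene) in the 12 libraries, by kit and diet. Points are mice, with the same symbol for the same mouse in both kits, and bars are group means of 3 mice. Per1, Per2, Per3 and Cry1 of the iron-loaded mice lie above all control mice in both kits and Npas2 lies below, while the other members overlap between diets.

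Npas2 was lower in the iron-loaded mice, and Arntl and Clock, with which it shares its role, did not pass the test. Npas2 (ENSMUSG00000026077, chromosome 1, 39193731 to 39363236, GENCODE M21 on GRCm38) encodes a partner of ARNTL that can stand in for CLOCK. Its Trad-KAPA levels were 3.69, 2.14 and 8.82 CPM in control mice 1, 2 and 3 and 1.64, 0.410 and 0.216 CPM in iron-loaded mice 1, 2 and 3. In 3’-LEXO they were 2.36, 1.00 and 3.97 CPM, and 0.997, 0 and 0.182 CPM. Every iron-loaded mouse was below every control mouse in both kits, but with 3’-LEXO the nearest mice of the groups had 14 counts (control mouse 2) and 13 counts (iron-loaded mouse 1). The 0 of iron-loaded mouse 2 among 10724672 counts allows a level of up to 0.280 CPM, for counting error only. Its log2 fold change was -2.77 (SE 0.72) in Trad-KAPA, with an adjusted p of 0.0338 in edgeR's quasi-likelihood test, and -2.60 (SE 0.80, adjusted p = 0.0821) in 3’-LEXO. The Trad-KAPA call was lost without control mouse 1 (adjusted p = 0.0667), control mouse 3 (0.107), iron-loaded mouse 2 (0.0889) or iron-loaded mouse 3 (0.0821), and without iron-loaded mouse 1 Npas2 was also called in 3’-LEXO (-4.64, adjusted p = 0.0182).

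Arntl (ENSMUSG00000055116, chromosome 7, 113207465 to 113314126), the activator without which the loop stops, had 10.1, 7.43 and 17.9 CPM in control mice 1, 2 and 3 of Trad-KAPA. Iron-loaded mouse 1 had 15.8 CPM, whereas iron-loaded mice 2 and 3 had 2.73 and 2.23 CPM. In 3’-LEXO the levels were 13.2, 10.4 and 22.3 CPM, and 15.6, 3.54 and 5.27 CPM. In both kits, iron-loaded mouse 1 lay within the range of the control mice, and the others of its diet lay below that range. For Arntl the log2 fold change was -0.88 (95% interval -2.40 to 0.63, adjusted p = 0.381) in Trad-KAPA and -0.98 (-2.04 to 0.07, adjusted p = 0.230) in 3’-LEXO. Without iron-loaded mouse 1 it was -2.29 (adjusted p = 0.00694) and -1.84 (adjusted p = 0.0116), so that this mouse decided the call.

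Clock (ENSMUSG00000029238, chromosome 5, 76209868 to 76304792), whose RNA varies little over the day, ranged from 39.1 to 56.7 CPM on the control diet and from 35.8 to 44.8 CPM on the iron-loaded diet in Trad-KAPA. The 3’-LEXO ranges were 30.3 to 39.2 and 20.9 to 31.9 CPM. Again it was iron-loaded mouse 1 that overlapped with the control mice in both kits. On the log2 scale, the fold change was -0.39 (SE 0.16, adjusted p = 0.123) in Trad-KAPA and -0.51 (SE 0.19, adjusted p = 0.135) in 3’-LEXO. Clock passed the test in Trad-KAPA without control mouse 1 (-0.55, adjusted p = 0.0478) and in 3’-LEXO without iron-loaded mouse 1 (-0.71, adjusted p = 0.0320). Without a filter on low counts, Clock (-0.55, adjusted p = 0.0365) and Arntl (-1.02, adjusted p = 5.16e-05) were both called in 3’-LEXO. The SE of Arntl was 0.21 in that fit, against 0.47 with the filter. Clock, Per1, Per2, Per3 and Dbp all had an SE of 0.18 or 0.19 in it, although their spread between mice differed widely. Calls from that fit thus reflect little of the spread of each gene between mice.

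All 3 Per genes rose on the iron-loaded diet in Trad-KAPA, and Per2 did so in 3’-LEXO too. Per2 (ENSMUSG00000055866, chromosome 1, 91415982 to 91459324), which encodes a scaffold of the repressor complex, had 16.7, 17.8 and 11.0 CPM in the control and 45.3, 58.8 and 58.9 CPM in the iron-loaded mice of Trad-KAPA. Its 3’-LEXO levels were 14.8, 16.8 and 10.6 CPM, and 34.0, 53.5 and 48.1 CPM. The groups lay far apart, and even iron-loaded mouse 1, the lowest of its diet, was well above every control mouse. Between diets the log2 fold change was 1.78 (SE 0.19, adjusted p = 0.00188) in Trad-KAPA and 1.64 (SE 0.22, adjusted p = 0.00412) in 3’-LEXO. Per2 passed the test in all 6 fits that left out 1 mouse in each kit, with log2 fold changes from 1.47 to 1.92.

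Per1 (ENSMUSG00000020893, chromosome 11, 69095217 to 69109960), which responds quickly to feeding and hormone signals as well as to the clock, had 53.6, 10.05 and 17.9 CPM in control mice 1, 2 and 3 of Trad-KAPA. The iron-loaded mice had 131, 131 and 124 CPM. In 3’-LEXO the levels were 40.2, 5.65 and 11.2 CPM, and 67.2, 72.4 and 75.3 CPM. The iron-loaded mice were within 1.06 times of each other in Trad-KAPA, while the control mice were spread over 5.34 times in Trad-KAPA and 7.10 times in 3’-LEXO. This gave a log2 fold change of 2.18 (SE 0.50, adjusted p = 0.0225) in Trad-KAPA and 1.86 (SE 0.54, adjusted p = 0.0718) in 3’-LEXO. The Trad-KAPA call was lost without control mouse 3 (1.98, adjusted p = 0.0908), and Per1 was called in 3’-LEXO without control mouse 1 (3.00, adjusted p = 0.00663), the highest of the control mice.

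Per3 (ENSMUSG00000028957, chromosome 4, 151003652 to 151044665), which can be lost with little effect on the rhythm, had 55.3, 59.9 and 14.2 CPM in the control and 107, 155 and 155 CPM in the iron-loaded mice of Trad-KAPA. The 3’-LEXO libraries had 52.8, 52.7 and 14.3 CPM, and 117, 105 and 107 CPM. Control mouse 3 was far below its cage mates in both kits. Its log2 fold change was 1.64 (SE 0.44, adjusted p = 0.0365) in Trad-KAPA and 1.41 (SE 0.37, adjusted p = 0.0531) in 3’-LEXO. The Trad-KAPA call was lost without control mouse 1 (adjusted p = 0.0750), control mouse 2 (0.0663), iron-loaded mouse 2 (0.0788) or iron-loaded mouse 3 (0.0793). Without control mouse 3 the log2 fold change was 1.02 in 3’-LEXO and passed the test (adjusted p = 0.0234).

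Of the cryptochromes, which carry the repressor complex onto the activators, Cry1 rose in Trad-KAPA. Cry1 (ENSMUSG00000020038, chromosome 10, 85131700 to 85185064) had 7.67, 4.62 and 7.30 CPM in the control and 11.9, 11.8 and 11.8 CPM in the iron-loaded mice of Trad-KAPA. In 3’-LEXO it had 4.29, 3.86 and 3.12 CPM, and 6.21, 5.69 and 5.82 CPM, so that the groups did not overlap in either kit. The log2 fold change was 0.78 (SE 0.20, adjusted p = 0.0327) in Trad-KAPA and 0.60 (SE 0.21, adjusted p = 0.109) in 3’-LEXO. The Trad-KAPA call was kept only without iron-loaded mouse 1 (adjusted p = 0.0273), and leaving out control mouse 1, 2 or 3 or iron-loaded mouse 2 or 3 gave adjusted p-values from 0.0597 to 0.0813. Cry2 (ENSMUSG00000068742, chromosome 2, 92403646 to 92434043) ranged from 60.1 to 83.9 CPM on the control and from 79.6 to 86.1 CPM on the iron-loaded diet in Trad-KAPA, and from 29.1 to 42.2 and from 38.8 to 47.4 CPM in 3’-LEXO. Its groups overlapped through control mouse 1, and its log2 fold change was 0.21 (95% interval -0.09 to 0.51, adjusted p = 0.289) in Trad-KAPA and 0.28 (-0.10 to 0.66, adjusted p = 0.342) in 3’-LEXO.

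Nr1d1 and Dbp, the most abundant members, did not pass edgeR's test in either kit. Nr1d1 (ENSMUSG00000020889, chromosome 11, 98767932 to 98775333) had 244, 205 and 167 CPM in the control and 185, 148 and 152 CPM in the iron-loaded mice of Trad-KAPA, with overlapping groups. In 3’-LEXO the control mice had 34.1, 28.8 and 16.7 CPM and the iron-loaded mice 32.8, 20.5 and 19.2 CPM. Its log2 fold change was -0.41 (95% interval -0.73 to -0.10, adjusted p = 0.0735) in Trad-KAPA and -0.19 (-0.77 to 0.39, adjusted p = 0.693) in 3’-LEXO. It was called in Trad-KAPA by DESeq2 (-0.42, adjusted p = 0.0479) and by edgeR without iron-loaded mouse 1 (-0.48, adjusted p = 0.0345), and in 3’-LEXO its sign turned without control mouse 1 (0.02, adjusted p = 0.974).

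Dbp (ENSMUSG00000059824, chromosome 7, 45705088 to 45710203), a factor that carries the rhythm to liver enzymes, had 160.1, 129 and 51.2 CPM in control mice 1, 2 and 3 of Trad-KAPA and 149, 219.6 and 218 CPM in iron-loaded mice 1, 2 and 3. In 3’-LEXO it had 137, 107 and 41.3 CPM, and 130.6, 218 and 235 CPM. Iron-loaded mouse 1 fell between control mice 1 and 2 in both kits, while iron-loaded mice 2 and 3 were above all control mice and control mouse 3 was below all others. The log2 fold change was 0.74 (95% interval -0.06 to 1.54, adjusted p = 0.175) in Trad-KAPA and 1.00 (0.16 to 1.83, adjusted p = 0.135) in 3’-LEXO. Dbp was not called in any of the fits without 1 mouse, where the log2 fold change ranged from 0.40 to 1.35. It was called without a filter on low counts in Trad-KAPA (0.74, adjusted p = 0.0295) and 3’-LEXO (0.96, adjusted p = 1.28e-05), and by DESeq2 in 3’-LEXO (1.00, adjusted p = 0.0436). The 3’-LEXO fit without a filter gave Dbp an SE of 0.19, against 0.37 with the filter, and reflects little of its spread between mice.

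Over the 10 members, edgeR called 5 in Trad-KAPA, where 17.1% of the 13151 genes tested were called. Of these, 4 were higher on the iron-loaded diet (8.77% of all genes) and 1 was lower (8.37%). In 3’-LEXO it called 1 member of 10, Per2, against 6.10% of the 13301 genes tested, with 3.17% of all genes called higher and 2.92% called lower. Per2 was also the only member that edgeR called in both kits, against 5.23% of the 12229 genes tested in both, whereas DESeq2 called 3 in both kits, Npas2, Per2 and Per3. An unadjusted p under 0.05 was reached by 7 members in each kit, against 34.3% of all genes tested in Trad-KAPA and 25.0% in 3’-LEXO. For 5 members, Npas2, Per1, Per2, Per3 and Cry1, the groups were separate and ordered the same way in both kits, which held for 22.8% of the genes tested in both. When libraries were scaled by their totals alone, the Trad-KAPA calls over all genes split into 1339 higher and 838 lower in place of 1154 and 1101, and the 4 higher and 1 lower members were unchanged. The median log2 fold change of the members was 0.48 with Trad-KAPA and 0.44 with 3’-LEXO, against 0.02 and 0.01 over all genes tested.

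**Figure D2:**
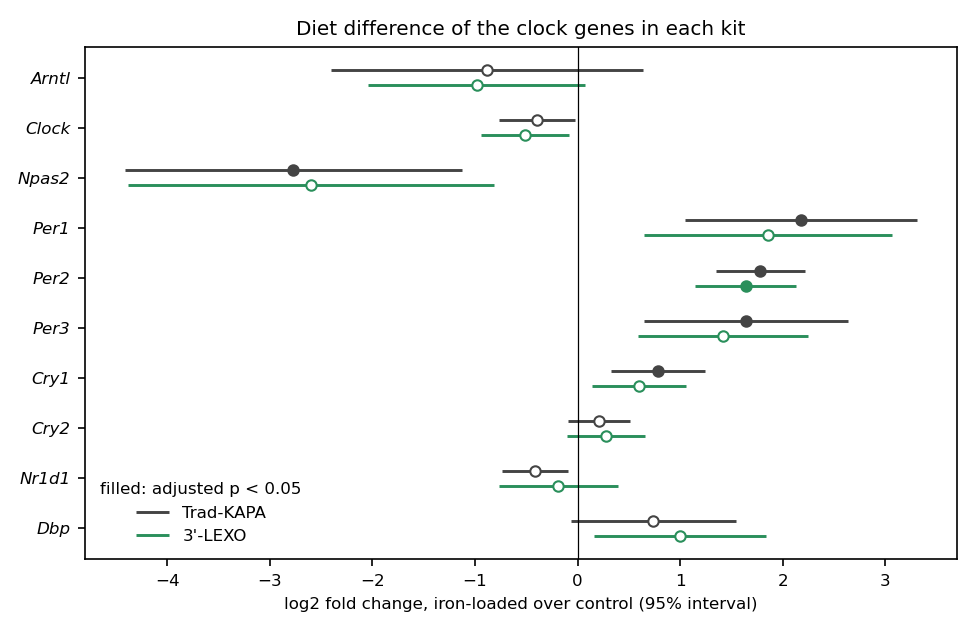
Log2 fold change of each clock gene between iron-loaded and control mice (horizontal axis, positive when higher on the iron-loaded diet) with its 95% interval derived from edgeR's F statistic, in Trad-KAPA and 3’-LEXO. Filled points passed an adjusted p of 0.05. The kits gave the same sign for all 10 genes, with Npas2 farthest to the left and Per1 farthest to the right.

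The diet difference of the members did not differ detectably between the kits, which measured the same RNA and are no independent replicates of each other. In the test of the interaction of diet and kit, edgeR called 0 of the 10 members, against 0.00% of the 14384 genes tested, and DESeq2 also called 0. None of the members reached an unadjusted p under 0.05 with either tool, while 402 of all genes did in edgeR. With the mouse as a replicate block, edgeR still called 0 members, against 0.0348% of all genes. Without the block, the differences of the log2 fold changes, 3’-LEXO minus Trad-KAPA, lay between -0.33 for Per1 and 0.26 for Dbp. The interval was -2.12 to 1.45 for Per1 and, as the widest, -2.79 to 3.15 for Npas2. That fit ignores that each RNA gave both libraries, so its intervals also hold the spread between mice. With the block, the interval was -0.56 to 0.05 for Per1 and -2.24 to 2.30 for Npas2. For Dbp the difference was then 0.25 (-0.0013 to 0.50, edgeR unadjusted p = 0.0511).

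Other genes of the clock loops were examined next. Of the 8 genes, 5 rose and 1 fell in Trad-KAPA and 5 rose in 3’-LEXO, and 4 of them rose in both. Over all genes tested, edgeR called 17.1%, 6.10% and 5.23% in these settings, in either direction. Their median log2 fold change was 0.81 with Trad-KAPA and 0.84 with 3’-LEXO. These genes were listed with earlier results of these data known, so their counts and direction are not independent evidence. Ciart, which encodes a repressor of the ARNTL and CLOCK pair and holds 3 copies of CACGTG in its promoter window, had 7.79, 1.61 and 0.651 CPM in the control and 33.5, 31.7 and 31.6 CPM in the iron-loaded mice of Trad-KAPA. With 3’-LEXO it had 5.002, 1.36 and 0.851 CPM, and 26.5, 29.2 and 26.5 CPM. Its log2 fold change, 3.17 (SE 0.59, adjusted p = 0.0121) and 3.45 (SE 0.46, adjusted p = 0.00402), was above that of any member in each kit. Only without control mouse 2 in Trad-KAPA was its call lost (adjusted p = 0.0523).

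Bhlhe41 and Bhlhe40, which encode the DEC repressors that compete for E-boxes, rose by log2 fold changes of 1.52 (SE 0.31) and 1.04 (SE 0.20) in Trad-KAPA and 1.91 (SE 0.39) and 0.88 (SE 0.21) in 3’-LEXO. Nr1d2, which encodes REV-ERBβ, rose by 0.89 (SE 0.12, adjusted p = 0.00479) and 0.80 (SE 0.15, adjusted p = 0.0173), from 59.5 to 79.1 CPM in the control to 126 to 142 CPM in the iron-loaded mice of Trad-KAPA. It thus differed in direction from its paralog Nr1d1, whose log2 fold changes were below 0 and did not pass the test. In 3’-LEXO the call of Nr1d2 was lost without control mouse 1 or 3 or iron-loaded mouse 3, and that of Bhlhe41 without control mouse 2 or 3 or iron-loaded mouse 3, with adjusted p-values of at most 0.0858. The call of Bhlhe40 was lost in Trad-KAPA without control mouse 3 (adjusted p = 0.0521), and it was kept in 3’-LEXO only without iron-loaded mouse 1.

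Rora, which encodes an activator of Arntl, rose in Trad-KAPA by 0.55 (SE 0.11, adjusted p = 0.0172), and its call was lost without control mouse 1 or 2 (adjusted p of at most 0.0681). In 3’-LEXO its value was 0.56 (adjusted p = 0.0700). Nfil3, the D-box repressor, fell in Trad-KAPA from 17.5 to 22.3 CPM in the control to 5.40 to 11.9 CPM in the iron-loaded mice (-1.44, SE 0.28, adjusted p = 0.0142), with its call lost without control mouse 3 (adjusted p = 0.0557), and had -1.28 (adjusted p = 0.0813) in 3’-LEXO, where it passed without iron-loaded mouse 1 (-2.03, adjusted p = 0.00127). Among the relatives of Dbp, Tef rose in 3’-LEXO by 1.01 (SE 0.24, adjusted p = 0.0408), a call that held only without control mouse 1 or iron-loaded mouse 1, and had 0.73 (adjusted p = 0.0662) in Trad-KAPA, or 0.89 (adjusted p = 0.0214) without iron-loaded mouse 1. Hlf had 0.41 (adjusted p = 0.0569) in Trad-KAPA and 0.53 (adjusted p = 0.0931) in 3’-LEXO, and it passed in both kits without iron-loaded mouse 1 (0.53, adjusted p = 0.00418, and 0.65, adjusted p = 0.0310).

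Of 7 kinases and ubiquitin ligases that set the lifetime of PER and CRY proteins, 1 rose in Trad-KAPA, Gsk3b by 0.52 (SE 0.11), and 0 passed the test in 3’-LEXO. Over all genes tested, 17.1% were called in Trad-KAPA, 6.10% in 3’-LEXO and 5.23% in both kits. Of 12 liver genes known for a strong daily rhythm, 7 rose and 2 fell in Trad-KAPA and 6 rose in 3’-LEXO, and 6 were called in both kits. Usp2, which encodes a deubiquitinase under the control of the clock, rose by 2.88 (SE 0.45, adjusted p = 0.00727) in Trad-KAPA and 2.87 (SE 0.42, adjusted p = 0.00593) in 3’-LEXO. Noct, a phosphatase of NADP(H) with a sharp evening peak, rose by 2.73 (SE 0.51) and 1.92 (SE 0.47). Wee1, a cell cycle kinase with E-boxes in its promoter, rose by 1.70 (SE 0.43) and 1.48 (SE 0.31), and Nampt, the enzyme that limits NAD synthesis, rose by 1.52 (SE 0.16) and 1.54 (SE 0.23). Usp2 and Nampt passed the test in both kits in all 6 fits without 1 mouse. The calls of Wee1 in both kits and that of Noct in 3’-LEXO were kept only without iron-loaded mouse 1, with adjusted p-values up to 0.147, and the Trad-KAPA call of Noct was lost without control mouse 2 or 3 (adjusted p of at most 0.0584). The 2 genes that fell in Trad-KAPA were Elovl3 (-1.70, SE 0.30) and Insig2 (-0.96, SE 0.24). In 3’-LEXO they had -0.83 (edgeR adjusted p = 0.0509) and -0.88 (adjusted p = 0.101). The list was drawn up with earlier results of these data known, and its direction is not independent evidence.

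**Figure D3:**
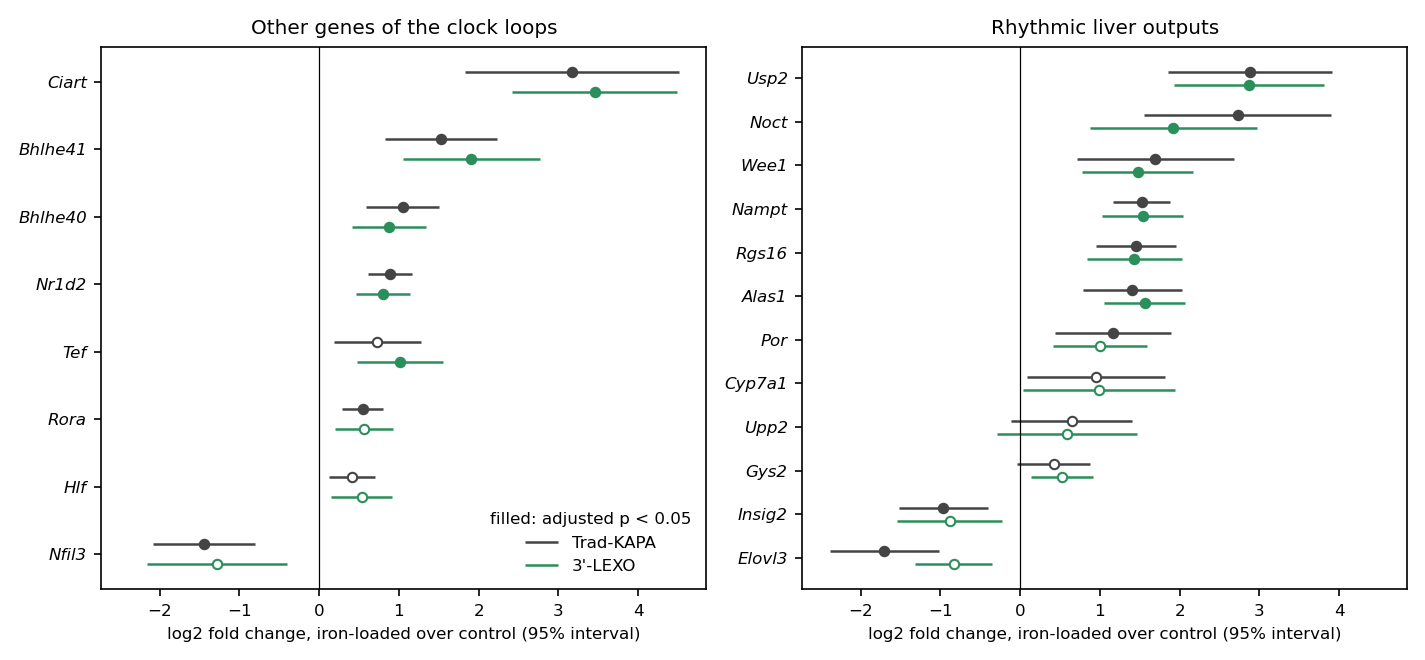
Log2 fold change between iron-loaded and control mice (horizontal axis) with its 95% interval derived from edgeR's F statistic for the 8 other genes of the clock loops (left) and the 12 rhythmic liver outputs (right), in both kits. Filled points passed an adjusted p of 0.05, and Ciart, Usp2 and Noct stand farthest to the right.

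The ratio of Dbp to Arntl counts within a library was taken as a measure of the daily state of each liver, since scaling between libraries cancels in it and these genes run in nearly opposite phase. On the log2 scale it was 3.98, 4.11 and 1.51 in control mice 1, 2 and 3 of Trad-KAPA and 3.24, 6.33 and 6.61 in iron-loaded mice 1, 2 and 3. In 3’-LEXO it was 3.37, 3.36 and 0.89, and 3.07, 5.94 and 5.48. In both kits, control mouse 3 was the lowest of the 6, iron-loaded mouse 1 came next, control mice 1 and 2 were close to each other above it, and iron-loaded mice 2 and 3 were the highest. Iron-loaded mouse 1 thus lay within the range of the control mice. The group means were 3.20 ± 1.46 (SD, n = 3) on the control and 5.39 ± 1.87 on the iron-loaded diet with Trad-KAPA, and 2.54 ± 1.43 and 4.83 ± 1.54 with 3’-LEXO. The difference of 2.19 in Trad-KAPA became 3.27 without iron-loaded mouse 1 and 1.35 without control mouse 3, and that of 2.29 in 3’-LEXO became 3.17 and 1.47. As a score over members it was given no test.

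**Figure D4:**
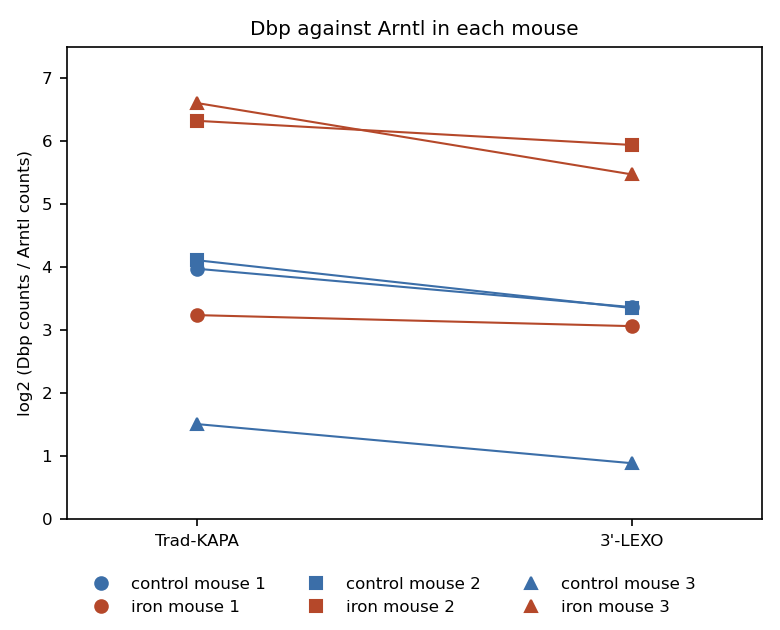
Log2 of the ratio of Dbp to Arntl counts (vertical axis) in each mouse, in Trad-KAPA (left) and 3’-LEXO (right), with a line joining the libraries of the same mouse. Control mouse 3 is lowest and iron-loaded mice 2 and 3 are highest in both kits, and iron-loaded mouse 1 lies within the range of the control mice.

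Mice of the same diet differed more in several clock genes than in most genes. The SD between mice within a diet, on the log2 scale of CPM plus 1, was 1.02 for Arntl in Trad-KAPA and 0.78 in 3’-LEXO, above 99.8% and 99.4% of all genes tested. Per1 (0.83 and 0.95), Per3 (0.83 and 0.74), Npas2 (0.72 and 0.59) and Dbp (0.65 and 0.71) were above at least 97.6% of all genes in both kits. Nr1d1 had 0.23 in Trad-KAPA and 0.46 in 3’-LEXO, above 64.7% and 93.6% of all genes. Per2 (0.29 and 0.33) was above 79.9% and 78.5%, and Clock (0.23 and 0.27) above 63.7% and 63.5%. Cry1 (0.24 and 0.14) was above 69.0% and 16.7% and Cry2 (0.19 and 0.21) above 52.6% and 45.9% of all genes. Over all genes the median was 0.19 with Trad-KAPA and 0.23 with 3’-LEXO, and over the members it was 0.47 and 0.53. These values describe 3 mice per diet and were not tested.

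The places of the mice within their diet were compared between the kits. Of the highest and lowest places of the 10 members, the same mouse held 18 of 20 in both kits on the control and 8 of 20 on the iron-loaded diet. Control mouse 3 had the highest level of its diet for Arntl, Clock and Npas2 in both kits, and the lowest for Per2, Per3, Cry2, Nr1d1 and Dbp. In the iron-loaded group, mouse 1 was the highest in both kits for Arntl, Clock, Npas2, Cry1 and Nr1d1 and the lowest for Per2 and Dbp. It was at opposite ends in the kits for the other 3 members, as the highest in Trad-KAPA and the lowest in 3’-LEXO for Per1 and Cry2 and the reverse for Per3. The 3 control mice had the same order in both kits for 8 of the 10 members, whereas the iron-loaded mice, of which mice 2 and 3 hardly differed, did so for 1. Of the 60 deviations of a mouse from the mean of its diet, 49 had the same sign in both kits. The same counts were not taken over all genes. Over 10326 genes the deviations of the libraries of a mouse had an r of 0.444 to 0.770, so agreement between the kits is not particular to the members.

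Counts of some members, scaled by library, differed between the kits. Trad-KAPA reads scale with transcript length, 3’-LEXO reads come mostly from the 3’ end, and the fits below did not correct for length. The differences are thus in reads per library and not in the amount of RNA, which was the same. In the fit with diet and kit, 4 members were lower in 3’-LEXO, where 77.0% of all genes were called in either direction, namely Nr1d1 (-2.84, SE 0.17), Cry2 (-0.95, SE 0.11), Cry1 (-0.90, SE 0.14) and Clock (-0.60, SE 0.13). With the mouse as a replicate block, which uses that each RNA gave both libraries, 9 members were called, against 82.6% of all genes. Arntl was then higher in 3’-LEXO (0.39), the other 8 were lower, and Dbp was the member that was not called (-0.14, adjusted p = 0.0538). Among the control mice Nr1d1 was the most abundant member in Trad-KAPA, with a mean of 205 CPM, but had a mean of 26.6 CPM in 3’-LEXO. For the iron-loaded mice of Trad-KAPA the mean of Dbp was the higher, at 65.3 RPKM against 52.5 RPKM for Nr1d1.

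Some members share exon sequence with a gene on the other strand, and whether strand was used in counting is not stated. Thra shares 263 bp (8.55%) of the exons of Nr1d1, within its last exon but short of its 3’ end, and Thra was higher in 3’-LEXO than in Trad-KAPA by a log2 difference of 1.17 (SE 0.10), opposite to Nr1d1. Sphk2 shares 539 bp (18.0%) of the exons of Dbp, including its 3’ end, and Sphk2 was lower in the iron-loaded mice by a log2 fold change of -1.48 (SE 0.23) in Trad-KAPA and -1.39 (SE 0.22) in 3’-LEXO, opposite in sign to Dbp. Of Cry2 and Arntl, 295 bp and 33 bp are shared with genes that had at most 0.143 CPM in any library. The part of shared reads in the values of Nr1d1 and Dbp was not tested.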

How the data were processed

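Libraries from the liver RNA of 6 mice were sequenced with 50 bp single-end reads, and the submitters' processing notes name STAR 2.5.3a as the aligner and GRCm38 as the build. The deposited values are raw counts of reads mapped uniquely to exons, 1 per gene and library, which the authors did not normalize and from which duplicates were not removed. The counting program, annotation release and strand setting are not given in the sources used here. Totals ranged from 10724672 to 16553616 counts, and counting intervals and floors (3 counts) cover counting error only.

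CPM used library totals, and gene lengths were the merged exons of GENCODE M21, which held 26949 of 27022 identifiers. Diet was tested within each kit by the quasi-likelihood test of edgeR 4.0.16 in R 4.3.3 (with limma 3.58.1), using filterByExpr, TMM and Benjamini-Hochberg adjustment over all genes tested at 0.05. The interaction of diet and kit and the kit difference were fitted over 12 libraries. The scripts were tested on simulated data. Python 3.11.15, pandas 2.3.3, numpy 2.4.6, scipy 1.17.1 and matplotlib 3.10.9 were used. Alternatives were DESeq2 1.42.0, its size factors, library totals, no filter, equal depth, replicate blocks, an adjusted p below 0.1 and leaving out each mouse.

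Members and gene lists were chosen with earlier results of these data known, and 2 list genes are not reported here. All members and the genes of the other clock loops are named, and of each other list up to 4 genes called in both kits, by mean size of the log2 fold change. Gsk3b, Elovl3, Insig2, Bmp6, Hamp, Ptprc, Cd3e, Cd79a, Vsig4, Thra and Sphk2, and in the closing section Fgf21, Fkbp5, Cirbp, Hspa1a, Hspa1b, Pdk4, Tat, Des and Stab2, were named after their values were seen. The 5 genes most like and most unlike Dbp and Arntl were taken by Pearson r over 12 libraries, centred within kit, among genes with at least 10 CPM on average in both kits. Mice were separate animals, 3 per diet. The libraries of both kits with the same diet and number come from 1 mouse. The check over 10326 genes (mean of 50 counts or more) gave an r of 0.444 to 0.770 between the deviations of the libraries of a mouse, and 5 of 6 mice had their highest r with their own number.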

Additional observations from a re-analysis of the deposited data

How the results depend on the processing

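In Trad-KAPA the count of 5 members called ranged from 2 to 7 without 1 mouse, with 2 without control mouse 3, iron-loaded mouse 2 or iron-loaded mouse 3, 3 without control mouse 1 or 2 and 7 without iron-loaded mouse 1. It was 6 with DESeq2 (Nr1d1 added), without a filter (Dbp added) and at an adjusted p below 0.1 (Nr1d1 added). Without a filter the SE of Dbp was 0.23, against 0.35 with it. Over all genes, 2255 of 13151 were called in Trad-KAPA. Without 1 mouse this ranged from 841 of 13412 (control mouse 2) to 2803 of 13446 (iron-loaded mouse 1), so that calls over all genes also rose without iron-loaded mouse 1. It was 2430 of 14558 with DESeq2, 2866 of 24470 without a filter and 3647 of 13151 at an adjusted p below 0.1. The 3’-LEXO count of 1 was 4 with DESeq2 (Npas2, Per2, Per3 and Dbp), 2 with library totals alone (Per2 and Per3) and 4 at an adjusted p below 0.1. It was 7 without a filter (all but Cry1, Cry2 and Nr1d1), in a fit that reflects little of the spread of each gene between mice. The count was 1 to 4 without 1 mouse, with 2 without control mouse 1 or 3 and 4 without iron-loaded mouse 1. Over all genes, 811 of 13301 were called in 3’-LEXO. Without 1 mouse this ranged from 199 of 13588 (control mouse 3) to 871 of 13670 (iron-loaded mouse 1). It was 1321 of 13547 with DESeq2, 873 with library totals alone, 2040 of 23491 without a filter and 1802 at an adjusted p below 0.1. The members called in both kits, 1 with edgeR as reported, were 3 with DESeq2, 2 with library totals alone, 5 without a filter (Npas2, Per1, Per2, Per3 and Dbp) and 1 to 3 without 1 mouse. The kit count of 4 became 9 with the mouse as a replicate block. Replicate numbers do not pair mice across diets, since the r between same-numbered control and iron-loaded libraries was 0.020, 0.068 and -0.021 with Trad-KAPA, and -0.17, -0.071 and 0.10 with 3’-LEXO. With the number as a replicate block the members called stayed at 5 in Trad-KAPA and 1 in 3’-LEXO, while the calls over all genes in 3’-LEXO went from 811 to 436. The sign turned for values that passed no test, since Nr1d1 in 3’-LEXO ranged from -0.45 to 0.023 without 1 mouse, and the interaction from -0.30 to 0.49 for Arntl, from -0.65 to 0.43 for Npas2 and from -0.39 to 0.028 for Cry1. Npas2 had no 3’-LEXO value at equal depth, where it was not tested. Per2 was called in both kits under all 12 alternatives for a single gene. The cause of these changes was not tested. With 3 mice per diet, intervals of Arntl, Npas2 and Per1 span over 2 log2 units, and the counts of Npas2, between 0 and 122, limit its values.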

Other observations

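Genes that answer to fasting, glucocorticoids and temperature, which also act on the liver clock, were counted beside the members. For scale, 17.1% of all Trad-KAPA genes tested passed edgeR's threshold in either direction, and 6.10% of all 3’-LEXO genes did. The lists are short, so that their counts are a description, and a response of a list as a whole was not tested. Of 12 genes of fasting and feeding, 1 rose and 1 fell in Trad-KAPA and 2 rose in 3’-LEXO, with a median log2 fold change of -0.04 and 0.00. Igfbp1, which encodes a binding protein of insulin-like growth factors that insulin represses, rose in both kits, by 3.27 (SE 0.66, edgeR adjusted p = 0.0158) and 3.21 (SE 0.60, adjusted p = 0.0169). Without iron-loaded mouse 1 the change of Igfbp1 was 2.05 in either kit, and its call was lost without control mouse 1 or 2 in both kits and without control mouse 3 in 3’-LEXO, with adjusted p-values of at most 0.0823. Pdk4 fell in Trad-KAPA (-1.14, SE 0.31) and had -0.67 (adjusted p = 0.252) in 3’-LEXO. Tat rose in 3’-LEXO (0.95, SE 0.24) and had 0.87 (adjusted p = 0.0808) in Trad-KAPA. Fgf21 had 2.15 (adjusted p = 0.148) and 1.90 (adjusted p = 0.0951). Of 5 glucocorticoid response genes, 1 rose in each kit, Sgk1 by 1.94 (SE 0.24, adjusted p = 0.00363) and 1.31 (SE 0.23, adjusted p = 0.0144), and without control mouse 2 or 3 its 3’-LEXO call was lost (adjusted p of at most 0.0708). Fkbp5 had 1.60 (adjusted p = 0.0662) and 1.72 (adjusted p = 0.0666). Of 8 genes of temperature and heat shock, Hspa1b fell in Trad-KAPA (-1.55, SE 0.40, with 7 of the 8 tested) and Cirbp rose in 3’-LEXO (1.13, SE 0.28). In the other kit these genes had the same sign, with -1.87 for Hspa1b (edgeR adjusted p = 0.0940) and 0.66 for Cirbp (adjusted p = 0.0575).

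Of the 4 genes of iron loading, 3 rose in Trad-KAPA and 2 of the 3 tested rose in 3’-LEXO, against 17.1% and 6.10% of all genes called. Bmp6 was the gene not tested in 3’-LEXO. Smad7, an inhibitor of BMP signalling, rose in both kits by 1.88 (SE 0.36, edgeR adjusted p = 0.0139) and 1.58 (SE 0.39, adjusted p = 0.0428). It had 34.1 CPM in iron-loaded mouse 1 and 74.7 and 75.8 CPM in iron-loaded mice 2 and 3 of Trad-KAPA, against 11.5 to 23.6 CPM in the control mice. Its Trad-KAPA call was lost without control mouse 2 or 3, and its 3’-LEXO call was kept only without iron-loaded mouse 1, with adjusted p-values up to 0.144. Hamp had a log2 fold change of 2.36 (adjusted p = 0.0667) in Trad-KAPA and rose by 2.53 (adjusted p = 0.0425) in 3’-LEXO.

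Across the 12 libraries, centred within kit, the genes with the highest Pearson r with Dbp were Slc22a27 (0.978), Tsc22d4 (0.965), Tef (0.961), Tnfrsf1a (0.951) and Tmem176a (0.947), and those with the lowest were Phlda1 (-0.972), Insig2 (-0.963), Foxa2 (-0.939), Neat1 (-0.923) and Slc45a3 (-0.910). With Arntl, the highest were Slc11a2 (0.978), an iron importer, Aldh1a1 (0.968), Letm1 (0.960), Fth1 (0.954), the heavy chain of the iron store ferritin, and Clpx (0.947), and the lowest were Slc39a4 (-0.960), Pcyt1a (-0.956), Insig1 (-0.955), Aldoc (-0.952) and Fnip2 (-0.947). These were taken from 6718 genes for Dbp and 6719 for Arntl, and the 12 points share 6 mice and 2 diets, so that they are a description. Within the members, r with Dbp was 0.929 for Per3, 0.831 for Per2 and -0.909 for Clock, and 0.083 for Nr1d1, and r between Dbp and Arntl was -0.793.

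Of the other cell type markers, the summed red cell markers ranged from 17.0 to 133 CPM on the control and from 14.1 to 25.6 CPM on the iron-loaded diet in Trad-KAPA, and the summed stellate cell markers from 132 to 161 and from 162 to 178 CPM. The sinusoidal endothelial markers ranged from 171 to 224 and from 173 to 222 CPM, and the bile duct markers from 5.62 to 6.07 and from 4.03 to 5.82 CPM. In 3’-LEXO the red cell markers were 118 to 896 and 86.4 to 151 CPM, the stellate cell markers 328 to 362 and 321 to 368 CPM, the endothelial markers 124 to 168 and 107 to 118 CPM, and the bile duct markers 12.3 to 16.0 and 9.54 to 10.9 CPM. In edgeR, Vsig4 and Ptprc rose and Des fell in Trad-KAPA, Stab2 fell in 3’-LEXO, and the other markers tested did not pass. The part of these cells in the clock genes was not tested.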
